A study of Mus musculus with 30 samples.

Results

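The EGF receptor signalling genes of the regenerating mouse digit tip were followed through 6 ligand genes, Hbegf, Areg, Ereg, Tgfa, Btc and Epgn, and 3 receptor genes, Egfr, Erbb2 and Erbb3. They were taken by gene symbol, with earlier results of these data known, and all 9 were found among the 20321 genes of the expression tables. All 9 also passed the filter on low counts, which left 13793 genes for testing.

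EGF family ligands are made as membrane proteins and are cut free at the cell surface, mostly by the protease Adam17, to bind Egfr on the same or nearby cells. Ligand-bound Egfr pairs with itself or with Erbb2, which has no ligand of its own, or Erbb3, which has little kinase activity and binds neuregulins, and the pair drives the Ras-ERK and PI3 kinase pathways. In skin, this signalling makes keratinocytes divide and migrate, and it is known for its part in wound closure, hair follicle cycling and the upkeep of the epidermis.

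RNA came from the third hindlimb digit of adult male C57Bl/6 mice, for which the sources give no other genotype and no drug, and from which at most 33% of the distal phalanx had been amputated and left to heal without sutures. Of the 30 mice, 3 were at 0 h, the comparison group whose digits were taken directly after surgery, and 12 in the first day, 3 of them at each of 3, 6, 12 and 24 h. A further 3 mice each were at 3 d, 14 d and 21 d, and 6 were at 7 d. There were no digits without amputation among the samples analysed here. The study counts 3 mice for each time point and 6 for 7 d, but some animal codes in the titles recur, as given below. Expression is given as CPM, a gene's counts relative to the size of its library, after TMM normalization, for comparisons between mice, and as TPM, which also divides by transcript length, for comparisons between genes.

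The shallowest library held 3167625 expected counts and the deepest 16277816 (median 6103688). By the dates in their titles the mice belong to 2 campaigns, 16 mice in July to August and 14 mice in November to January, whose median totals were 5083528 and 9836324. All mice at 3 h and 12 h had July to August dates, and all mice at 21 d had November to January dates. Some animal codes in the titles recur at different times, 1 of them at 0 h, 3 h and 12 h. At 0 h and 12 h this code also carries the same date and foot, and the 0 h mouse is the only one there with a July to August date. Whether the mice with recurring codes are independent could not be checked. At 7 d, 3 of the 6 mice were labelled left foot, all with November to January dates, and every other mouse in the series right foot. The keratinocyte genes that define skin were abundant in every mouse, with 6 basal markers (Krt5, Krt14, Trp63, Itga6, Itgb4 and Col17a1) summing to between 9158 and 14309 CPM. The digit is a bulk tissue of epidermis, nail, connective tissue and bone, so for every value here fewer cells of a type and less RNA per cell cannot be told apart.

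Of the 6 ligands, 4 lie side by side on mouse chromosome 5 (GRCm38), where Epgn, Ereg, Areg and Btc fill a stretch of 376 kb, chr5:91027464-91402994. Epgn (chr5:91027464-91035215), Ereg (chr5:91074622-91093646) and Areg (chr5:91139599-91148432) are on the plus strand, and Btc (chr5:91357261-91402994) is on the minus strand. The genes next to the cluster on either side, Mthfd2l and Parm1, did not pass the test over the 9 time points, with edgeR adjusted p of 0.940 and 0.380. Egfr (chr11:16752203-16918158, plus strand) and Erbb2 (chr11:98412470-98437716, plus strand) share chromosome 11 far apart from each other. Tgfa is at chr6:86195223-86275719 on the plus strand and Erbb3 at chr10:128567523-128589652 on the minus strand.

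Promoter windows of RefSeq (GRCm38.p6, from 250 bases before to 50 bases after the annotated start) were at hand for 6 of the 9 genes, Areg, Tgfa, Btc, Epgn, Egfr and Erbb2. Areg and Epgn, both of the ligand cluster, are shown as its scarcest ligand and the ligand called over the time course, and Egfr as the shared receptor. Capitals mark exact matches, on either strand, to the CRE motif TGACGTCA, the TATA motif TATAAA and the GC box GGGCGG. The 3 windows, each of 300 bases on the plus strand, are chr5:91139349-91139648 for Areg, chr5:91027267-91027566 for Epgn and chr11:16751953-16752252 for Egfr.
Areg: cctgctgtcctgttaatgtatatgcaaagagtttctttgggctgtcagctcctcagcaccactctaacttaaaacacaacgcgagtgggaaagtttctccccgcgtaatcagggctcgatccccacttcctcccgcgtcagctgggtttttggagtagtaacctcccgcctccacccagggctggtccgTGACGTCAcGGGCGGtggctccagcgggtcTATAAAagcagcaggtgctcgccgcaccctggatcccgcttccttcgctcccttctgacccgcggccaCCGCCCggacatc
Epgn: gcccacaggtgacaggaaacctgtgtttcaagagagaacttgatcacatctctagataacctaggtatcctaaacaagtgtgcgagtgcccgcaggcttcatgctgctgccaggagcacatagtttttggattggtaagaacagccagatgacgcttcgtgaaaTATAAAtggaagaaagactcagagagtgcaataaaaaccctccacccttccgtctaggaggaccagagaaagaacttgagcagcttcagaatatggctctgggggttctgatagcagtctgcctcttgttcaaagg
Egfr: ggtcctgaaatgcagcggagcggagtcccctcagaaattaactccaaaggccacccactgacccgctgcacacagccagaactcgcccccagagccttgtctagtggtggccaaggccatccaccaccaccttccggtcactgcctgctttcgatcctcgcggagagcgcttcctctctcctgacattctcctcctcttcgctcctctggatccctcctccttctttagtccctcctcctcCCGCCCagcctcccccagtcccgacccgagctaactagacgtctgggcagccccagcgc

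The Areg window held a CRE motif with its first base at -61, a GC box at -52, a TATA motif at -31 and a further GC box at 38, counted from the RefSeq start. The Epgn window held only a TATA motif, at -86, and the start that GENCODE gives for Epgn lies 53 bases upstream of the RefSeq start. The Egfr window held a single GC box at -9 and no TATA motif, the Tgfa window had GC boxes at -126 and -15, and the windows of Btc and Erbb2 had none of the motifs. No window of the 6 held the AP-1 motif TGANTCA, in which N is any base. Among all 32851 windows of this length, 1.79% held the CRE motif, 7.81% the AP-1 motif, 13.6% the TATA motif and 35.7% the GC box. These matches describe letters only, and no binding was measured.

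Ereg, the gene of epiregulin, which binds Egfr and Erbb4, was the most abundant of the ligands, at 88.2 ± 29.3 TPM over the 30 mice (SD, n = 30), with single mice from 42.3 to 164 TPM. Epgn, the gene of epigen, a ligand found mainly in epithelia, followed with 62.9 ± 28.6 TPM (SD, n = 30). Ereg was the highest ligand by TPM in 24 mice and Epgn in the other 6. The other ligands were lower, with 29.5 ± 11.5 TPM for Hbegf, 19.5 ± 8.0 TPM for Btc, 9.65 ± 3.27 TPM for Tgfa and 7.59 ± 4.32 TPM for Areg (SD, n = 30 each). Among the receptors, Erbb2 stood at 55.5 ± 12.5 TPM, Erbb3 at 33.9 ± 8.27 TPM and Egfr at 22.1 ± 6.17 TPM (SD, n = 30 each).

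Ereg and Epgn thus held 40.6% and 28.2% of the summed TPM of the 6 ligands on average over mice, against 3.52% for Areg. The share depended on the scale for genes of unlike length: in summed CPM, which favours long transcripts, Ereg held 55.5%, Epgn 16.8% and Areg 1.40%. The summed TPM of the ligands was 212 ± 80.4 at 0 h (SD, n = 3), 303 ± 72.3 at 3 h (SD, n = 3), its highest mean, and 163 ± 27.3 at 7 d (SD, n = 6), its lowest. Single mice ran from 153 to 304 TPM at 0 h, from 222 to 360 TPM at 3 h and from 140.3 to 214 TPM at 7 d, so that 3 h lay above 7 d in every mouse and 0 h overlapped both. The 3 h and 7 d groups were picked as the extremes of the means. Ereg took 52.2% ± 3.22 of the ligand TPM at 0 h and 30.5% ± 7.44 at 12 h, where Epgn took 40.0% ± 9.88 (SD, n = 3 each). No test was run on the sums and shares.

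**Figure D1:**
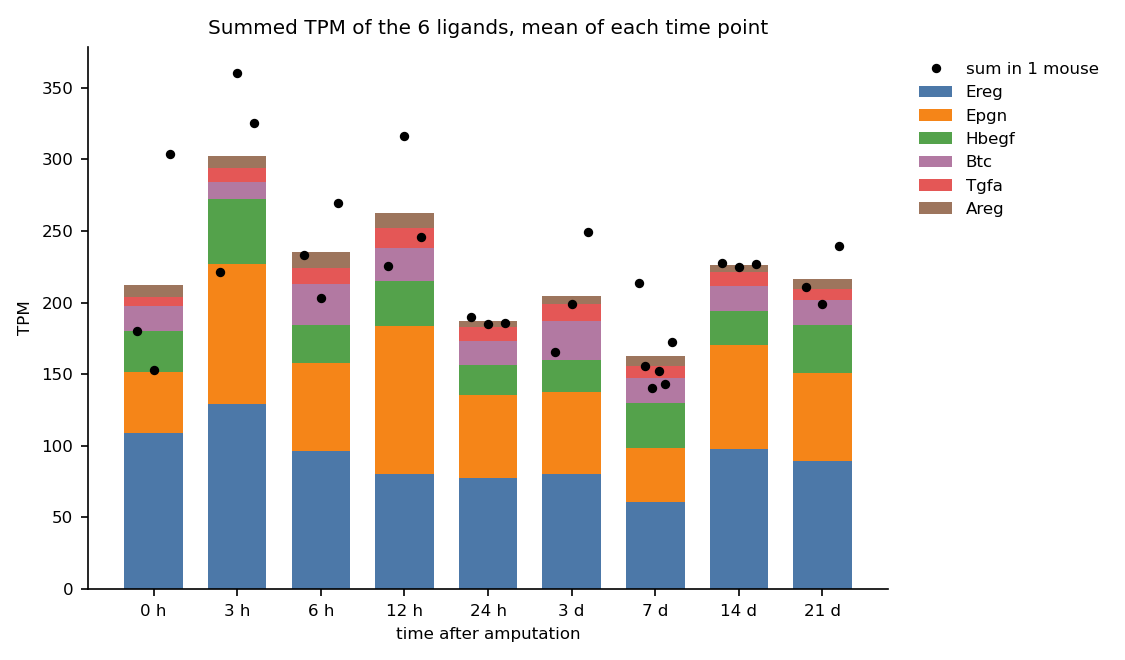
Summed TPM of the 6 ligands by time after amputation. Bars are means of the mice at each time, stacked by gene, and points are the sums of single mice. Ereg and Epgn make up most of every bar, the mean sum is highest at 3 h (303 TPM) and lowest at 7 d (163 TPM), and the 0 h mice spread from 153 to 304 TPM.

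To ask whether the genes changed at any time, the 9 time points were compared in a single edgeR quasi-likelihood fit of all mice with Benjamini-Hochberg adjustment over all genes tested. Erbb3 (adjusted p = 0.0114) and Epgn (adjusted p = 0.0457) passed the threshold of 0.05, 2 of 9 genes, against 9.01% of all genes tested. Ereg came next (adjusted p = 0.0562), then Egfr (0.190), Hbegf (0.241), Btc (0.316), Erbb2 (0.479), Tgfa (0.541) and Areg (0.901), each value an adjusted p. At an unadjusted p under 0.05, 4 of the 9 genes passed, and the share of all genes at that cut was not counted. Time points accounted for 67.9% of the variance of log2(CPM + 1) for Erbb3, 54.5% for Epgn, 53.8% for Ereg and 48.2% for Egfr, and for 21.6% for Areg.

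Against the 0 h digits, none of the 9 genes was called by edgeR at any of the 8 later times, and the same held for DESeq2 and for limma on log2 TPM. The shares of all genes called by edgeR were small at the early times, 0.254% at 3 h, 0.189% at 6 h, 0.167% at 12 h, 0.493% at 24 h and 0.551% at 3 d, and larger later, 2.34% at 7 d, 1.61% at 14 d and 1.94% at 21 d. At an unadjusted p under 0.05, 3 of the 9 genes passed at 3 h (Epgn, Erbb3 and Hbegf), 2 at 12 h (Epgn and Tgfa), 1 at 7 d (Ereg), 1 at 21 d (Erbb3) and 0 at 6 h, 24 h, 3 d and 14 d. The shares of all genes at an unadjusted p under 0.05 were not counted, so these counts have no background and cannot be set against the shares above. These pairs failed the correction, and where their fold changes are printed they were picked after their values were seen. The 8 comparisons share the same 3 mice at 0 h. The July to August mouse at 0 h had the highest CPM of the 3 for 6 of the 9 genes (66.7%), against 37.1% of all genes tested.

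**Figure D2:**
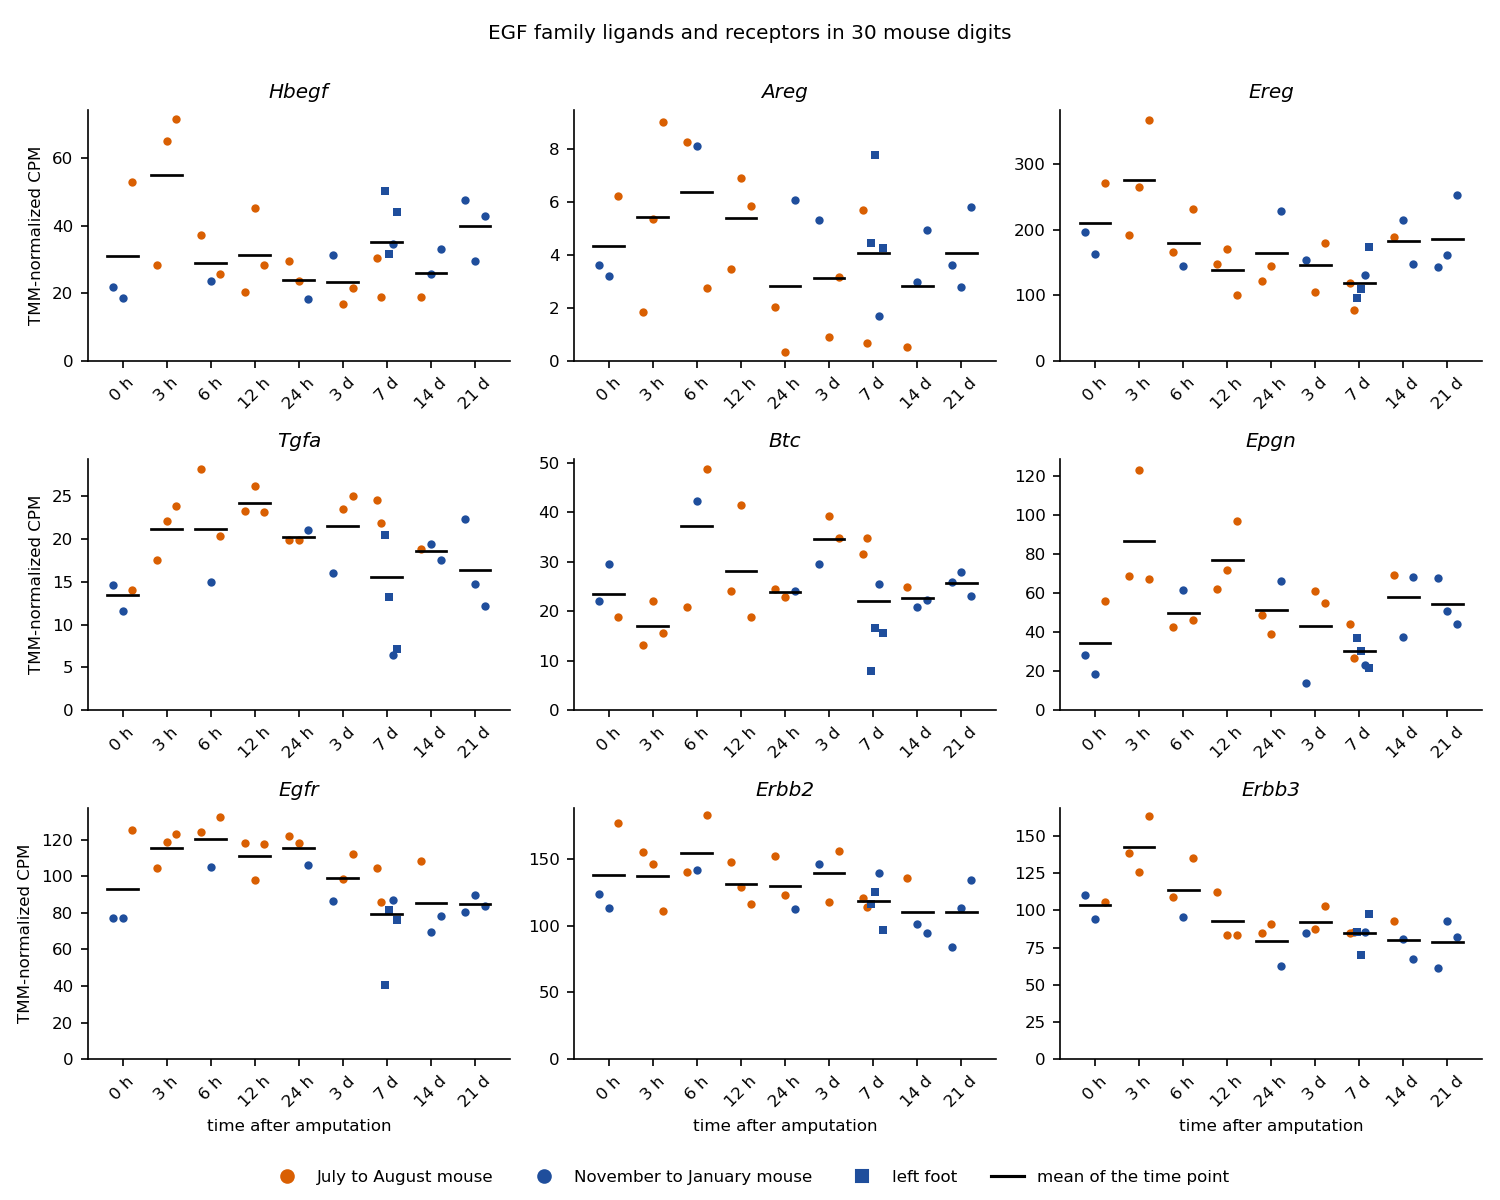
TMM-normalized CPM of the 9 genes in every mouse by time after amputation, with each vertical axis starting at 0. Circles and squares are single mice (squares: left foot), colours give the campaign of the title date, and bars are means of 3 mice (6 at 7 d). Erbb3, Ereg, Epgn and Hbegf have their highest mean at 3 h, and the ranges of neighbouring times overlap nearly throughout.

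Epgn was low in the 0 h digits and higher at 3 h and 12 h. It had 28.0, 18.5 and 55.8 CPM in the mice at 0 h, 68.9, 123 and 67.2 CPM at 3 h, and 61.9, 71.6 and 97.0 CPM at 12 h. All 6 mice at 3 h and 12 h were above all 3 mice at 0 h. They all had July to August dates, while at 0 h only the mouse at 55.8 CPM did. That mouse has the animal code, date and foot of 1 mouse at 12 h, so whether these groups are independent could not be checked. The part of campaign in this gap was not tested in single mice. The log2 fold change against 0 h was 1.35 at 3 h (SE 0.41, adjusted p = 0.175) and 1.18 at 12 h (SE 0.41, adjusted p = 0.437). With campaign in the fit it was 1.15 at 3 h (SE 0.40, adjusted p = 0.280) and 0.97 at 12 h (SE 0.39, adjusted p = 0.674).

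At the other times the means of Epgn were lower, and lowest at 7 d, with overlap in single mice. It had 42.4, 61.3 and 46.0 CPM at 6 h, 48.4, 38.7 and 66.4 CPM at 24 h, and 13.8, 60.8 and 54.6 CPM at 3 d. At 7 d the 6 mice ran from 21.7 to 44.0 CPM with a median of 28.3, below every mouse at 3 h and 12 h. It was 69.0, 37.3 and 68.2 CPM at 14 d and 67.6, 51.0 and 44.0 CPM at 21 d. From the highest mean, at 3 h (86.4 ± 31.8 CPM, SD, n = 3), to the lowest, at 7 d (30.3 ± 8.63 CPM, SD, n = 6), the fold was 2.85, the widest of the 9 genes. These times were picked as the extremes of the means. All mice at 3 h and 12 h had July to August dates and 4 of the 6 at 7 d November to January dates, so time and campaign are partly mixed in these gaps. The call over the time course was fragile: it was kept in 6 of 30 fits that left out 1 mouse (replicate 3 at 0 h, replicates 1 and 2 at 3 d, replicates 1 and 3 at 7 d or replicate 2 at 14 d) and lost without any 1 of the others, with adjusted p from 0.0101 to 0.133 over the 30 fits.

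Ereg, the most abundant ligand, was highest at 3 h and lowest at 7 d. It had 196, 163 and 271 CPM at 0 h and 193, 265 and 368 CPM at 3 h, so that these times overlapped. At 7 d it ran from 76.6 to 174 CPM with a median of 114, and only replicate 6, at 174 CPM, reached the range of the 0 h mice. The mean was 275 ± 88.3 CPM at 3 h (SD, n = 3) and 118 ± 33.5 CPM at 7 d (SD, n = 6), a fold of 2.34 with no overlap between the mice of the 3 h and 7 d groups. These times were picked as the extremes of the means, and the share of all genes with such a gap was not counted. All mice at 3 h had July to August dates and 4 of the 6 at 7 d November to January dates, so time and campaign are partly mixed in this gap.

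The log2 fold change of Ereg at 7 d against 0 h was -0.83 (SE 0.26, adjusted p = 0.0872), and -0.84 with campaign in the fit (adjusted p = 0.0539). Without replicate 6 at 7 d the adjusted p was 0.0373. Over the time course, Ereg passed the threshold without replicate 1 at 3 h (adjusted p = 0.0447), without replicate 3 at 24 h (0.0418) or without replicate 6 at 7 d (0.0289), and also with campaign in the fit (0.0394). Between these times Ereg had 165, 144 and 232 CPM at 6 h, 147, 170.0 and 100.5 CPM at 12 h, 121, 144 and 229 CPM at 24 h and 153, 105 and 179 CPM at 3 d. It was back at 189, 214 and 147 CPM at 14 d and 144, 161 and 252 CPM at 21 d, within reach of the 0 h mice.

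Hbegf, which encodes the heparin-binding ligand that moves keratinocytes in culture and in wounds, had its highest mean at 3 h, 55.0 ± 23.3 CPM (SD, n = 3), and its lowest at 3 d, 23.2 ± 7.38 CPM (SD, n = 3). The mice at 3 h had 28.3, 65.0 and 71.6 CPM against 21.8, 18.4 and 53.0 CPM at 0 h, and the groups overlapped. The log2 fold change at 3 h was 0.83 (SE 0.39, adjusted p = 0.439). Against the July to August mouse at 0 h, at 53.0 CPM, 2 of the 3 mice at 3 h were higher and 1 was lower. At 7 d the range was 18.9 to 50.4 CPM, and at 21 d the mice had 47.7, 29.6 and 42.9 CPM.

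Tgfa, which encodes transforming growth factor alpha, was lowest at 0 h, with 14.6, 11.6 and 14.1 CPM. All 3 mice at each of 3 h (17.5, 22.1 and 23.9 CPM), 6 h (28.3, 15.0 and 20.4 CPM) and 12 h (23.3, 26.3 and 23.2 CPM) were above all mice at 0 h. The same held at 24 h, 3 d and 14 d, but not at 7 d, where the mice spread from 6.42 to 24.6 CPM, or at 21 d. The log2 fold change at 12 h, its highest mean (24.3 ± 1.76 CPM, SD, n = 3), was 0.85 (SE 0.36, adjusted p = 0.592).

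Counting genes whose range did not overlap that of the 0 h mice gave 3 of 9 at 3 h (Epgn, Erbb3 and Tgfa, all higher), 1 at 6 h (Tgfa), 2 at 12 h (Epgn and Tgfa), 2 at 24 h (Tgfa higher, Erbb3 lower), 1 at 3 d (Tgfa), 0 at 7 d, 2 at 14 d (Tgfa higher, Erbb3 lower) and 1 at 21 d (Erbb3 lower). With so few mice such gaps are common, and the share of all genes tested that showed one was 19.7% at 3 h, 17.8% at 6 h, 19.7% at 12 h, 17.8% at 24 h, 15.2% at 3 d, 7.36% at 7 d, 25.4% at 14 d and 22.8% at 21 d.

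Btc, the gene of betacellulin, which binds Egfr and Erbb4, was highest at 6 h (37.3 ± 14.6 CPM) and lowest at 3 h (16.9 ± 4.69 CPM; SD, n = 3 each). The mice at 6 h had 20.8, 42.3 and 48.7 CPM and those at 3 h 13.0, 22.1 and 15.5 CPM, and these ranges overlapped. Areg, the gene of amphiregulin, an Egfr ligand of epithelia, was the scarcest ligand and the most variable. It held between 2 and 80 counts per mouse, with 3 mice at or under 3 counts, and its CPM ran from 0.314 to 9.04. Its highest mean was at 6 h, 6.36 ± 3.14 CPM, and its lowest at 24 h, 2.80 ± 2.96 CPM (SD, n = 3 each), with overlap. The residual SD of log2(CPM + 1) within time points was 0.83 for Areg and 0.21 for Erbb3, the widest and narrowest of the 9 genes.

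Erbb3, the receptor that pairs with Egfr or Erbb2 and feeds PI3 kinase, showed the clearest time course. It had 110.4, 94.1 and 106 CPM at 0 h and 139, 126 and 163 CPM at 3 h, with all 3 mice at 3 h above all mice at 0 h. It then had 109, 95.7 and 135 CPM at 6 h and 113, 83.2 and 83.5 CPM at 12 h. At 24 h the mice had 84.7, 90.6 and 62.9 CPM, all below the 0 h mice.

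Erbb3 stayed near that level, with 85.0, 87.3 and 103 CPM at 3 d, from 70.1 to 97.4 CPM at 7 d (median 85.3), 92.9, 80.6 and 67.5 CPM at 14 d and 60.9, 93.1 and 82.1 CPM at 21 d. The highest mean, 143 ± 19.1 CPM at 3 h, was 1.81 times the lowest, 78.7 ± 16.4 CPM at 21 d (SD, n = 3 each), with no overlap. These times were picked as the extremes of the means. All mice at 3 h had July to August dates and all at 21 d November to January dates, so for this gap time and campaign cannot be told apart. The log2 fold change against 0 h was 0.46 at 3 h (SE 0.19, adjusted p = 0.356) and -0.39 at 21 d (SE 0.19, adjusted p = 0.508), so that the time course as a whole passed the test and no single comparison with 0 h did. The call was kept in 29 of 30 fits that left out 1 mouse and lost without replicate 3 at 3 h (adjusted p = 0.0921), and it was not made by limma on log2(TPM + 1) (adjusted p = 0.162).

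Egfr, the receptor that all 6 ligands bind, did not pass over the time course but was called higher in the first day than from 7 d on, a call that was lost with campaign in the fit (adjusted p = 0.172). The mice had 105, 119 and 123 CPM at 3 h, 124, 105 and 133 CPM at 6 h, 118, 98.1 and 118 CPM at 12 h and 122, 118 and 106 CPM at 24 h. At 0 h they split into 77.4, 77.1 and 125 CPM, the last being the July to August mouse, and at 3 d they had 86.6, 98.4 and 112 CPM. At 7 d they ran from 40.6 to 104 CPM with a median of 83.9, and at 14 d and 21 d they had 108, 69.5 and 78.5 CPM and 80.4, 90.0 and 83.7 CPM. Erbb2, a partner of the other receptors, had the smallest fold between means, with its highest mean 155 ± 24.4 CPM at 6 h and its lowest 111 ± 25.4 CPM at 21 d (SD, n = 3 each), a fold of 1.40.

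In the order of means within each gene, neighbouring time points overlapped in their mice for all 8 steps of 8 genes. The exception was Tgfa, in which the mice at 24 h (19.9, 19.9 and 21.0 CPM) all lay above those at 14 d (18.9, 19.4 and 17.5 CPM).

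To ask whether the genes belonged to the first day or to the weeks of bone resorption and regrowth, the 12 mice of 3 h to 24 h were set against the 12 mice of 7 d to 21 d in the same fit. Egfr and Erbb3 were higher early and passed the threshold, 2 of 9 genes, against 15.4% of all genes in either direction and 6.09% higher early. Egfr had a log2 fold change of 0.48 (SE 0.12, 95% interval 0.23 to 0.72, adjusted p = 0.00626). All 12 early mice were above the late median for Egfr and 8 of them above every late mouse, with ranges of 98.1 to 133 CPM early and 40.6 to 108 CPM late. Erbb3 had a log2 fold change of 0.37 (SE 0.10, interval 0.17 to 0.56, adjusted p = 0.00970), with 62.9 to 163 CPM early and 60.9 to 97.4 CPM late, so that 6 of 12 early mice were above every late mouse.

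The other log2 fold changes, early minus late, were 0.29 for Erbb2 (SE 0.11, adjusted p = 0.0652), 0.49 for Epgn (SE 0.21, adjusted p = 0.107), 0.37 for Tgfa (SE 0.19, adjusted p = 0.187), 0.38 for Areg (SE 0.42, adjusted p = 0.583), 0.21 for Ereg (SE 0.16, adjusted p = 0.394), 0.13 for Btc (SE 0.19, adjusted p = 0.701) and -0.01 for Hbegf (SE 0.20, adjusted p = 0.984). Neither receptor passed in limma on log2(TPM + 1), with adjusted p of 0.0760 for Egfr and 0.0597 for Erbb3. The value was above 0 for 8 of 9 genes, with a median of 0.37 against -5.8e-05 over all genes tested. For Hbegf the interval of the difference, -0.42 to 0.40, leaves room for a change of either sign.

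Early and late mice also differed in campaign. Of the early mice 10 had July to August dates and 2 November to January dates, while of the late mice 3 and 9 did, so that the times could be separated from the campaigns only in part. With campaign added to the fit, neither receptor passed: the log2 fold change was 0.24 for Egfr (SE 0.11, adjusted p = 0.172) and 0.24 for Erbb3 (SE 0.11, adjusted p = 0.156). None of the 9 genes was called, against 1701 of all genes tested. At an unadjusted p under 0.05, 2 of the 9 passed, and the share of all genes at that cut was not counted. Within a campaign, the difference of mean log2(CPM + 1), early minus late, was 0.24 for Egfr in July to August (10 mice against 3) and 0.49 in November to January (2 against 9). For Erbb3 it was 0.32 and -0.03, the latter resting on 2 early mice at 62.9 and 95.7 CPM. For Hbegf it was 0.61 and -0.80, and for Btc -0.35 and 0.68.

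**Figure D3:**
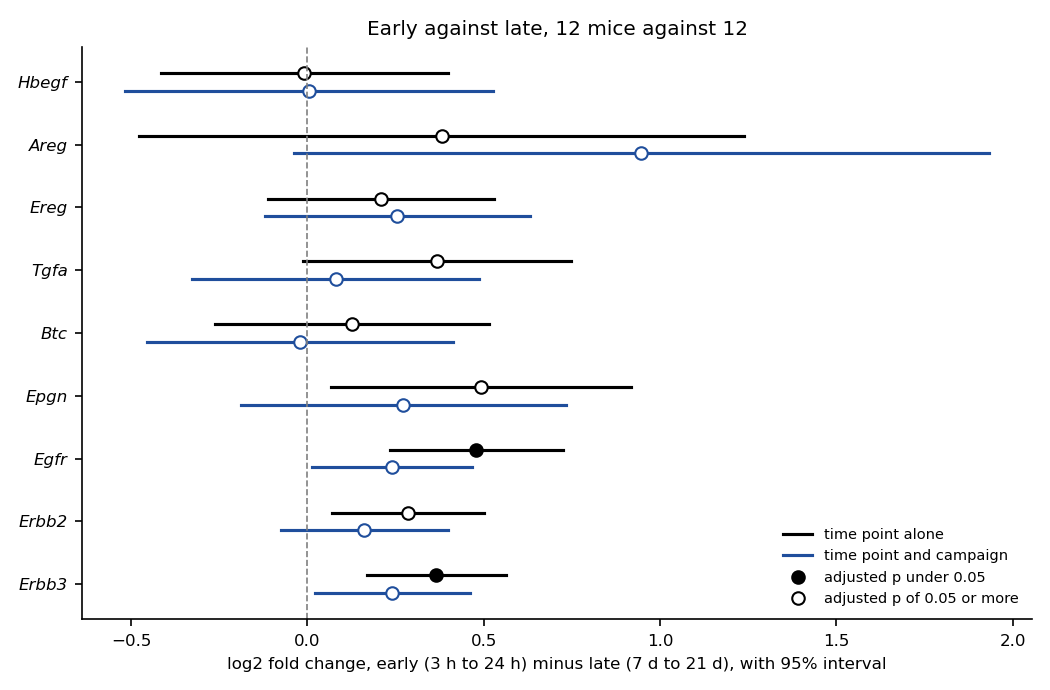
Log2 fold change of each gene, early mice (3 h to 24 h) minus late mice (7 d to 21 d), with 95% intervals. Black gives the fit with time point alone and blue the fit with campaign added, and filled points have an adjusted p under 0.05. Egfr (0.48) and Erbb3 (0.37) are the only filled points, both in black, and both lie at 0.24 and unfilled in blue.

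The campaigns themselves differed at the same time points. In the fit with time point and campaign, 24.1% of all genes were called between campaigns, and of the 9 genes Egfr was, lower in November to January by a log2 fold change of -0.41 (SE 0.10, adjusted p = 0.00363). Its mean was lower in November to January at 6 of the 6 time points that hold both campaigns, and so was that of Erbb3 (-0.20, SE 0.10, adjusted p = 0.150). Tgfa was at -0.48 (SE 0.18, adjusted p = 0.0566) and Areg at 0.91 (SE 0.44, adjusted p = 0.146). With campaign in the fit, the test over the 9 time points called 12.2% of all genes and 2 of the 9, Erbb3 (adjusted p = 0.0214) and Ereg (0.0394), while Epgn was at 0.0587. The left-foot mice were all in the November to January campaign. What the campaigns differed in, beyond their dates, depth and these feet, is not given in the sources used here.

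As a description, log2(CPM + 1) was correlated between genes over the 30 mice, which share libraries, depth and time points. The highest Pearson values among the 9 genes were 0.57 for Tgfa with Epgn, 0.54 for Egfr with Erbb2, 0.54 for Hbegf with Areg and 0.53 for Erbb2 with Erbb3, and the lowest was -0.45 for Hbegf with Btc. In the chromosome 5 cluster, the adjacent pairs had 0.25 for Epgn with Ereg, 0.32 for Ereg with Areg and -0.18 for Areg with Btc, and the other pairs 0.14 for Epgn with Areg, -0.07 for Ereg with Btc and 0.01 for Epgn with Btc.

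Over all genes tested, the genes most like Egfr were Trps1 (r = 0.88), Pum2 (0.87) and Usp15 (0.87), over 30 mice. Those most like Erbb3 were Acap3 (0.84), Aloxe3 (0.83), a lipoxygenase of the skin barrier, and Aim1l (0.82). Those most like Epgn were Krtap11-1 (0.77), a hair keratin-associated protein, Prr9 (0.76) and Nradd (0.75). For Ereg they were Zbtb43 (0.77), Bok (0.77) and Epn3 (0.76), for Hbegf Trim16 (0.76), Alas1 (0.75) and 1810011O10Rik (0.74), and for Tgfa Phospho2 (0.82), Smpd1 (0.80) and Psma6 (0.80). Btc was most like Rasgrp4 (0.76), Wrn (0.71) and Tipin (0.71), Erbb2 like Gltp (0.70), Pcbp1 (0.70) and Plch2 (0.69), and Areg like Qtrtd1 (0.70) and Gipc2 (0.66).

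The rest of the family was scarce. Nrg1, a neuregulin that binds Erbb3, was the only 1 of the 4 other ligand genes tested that passed over the time course (adjusted p = 0.0125, and 0.0358 with campaign in the fit), with 10.1 ± 8.47 CPM at 3 h, 1.17 ± 0.245 CPM at 0 h and 0.989 ± 0.547 CPM at 24 h (SD, n = 3 each). The highest mouse had 18.8 CPM. Egf reached 3.32 CPM at most, and Erbb4 and Nrg3, at or under 3 counts in 23 and 28 of the 30 mice, failed the filter on low counts.

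Of 11 genes that release the ligands from the membrane or govern that step, 1 passed over the time course, near the 9.01% of all genes tested. It was Adam12 (adjusted p = 0.000502), a metalloprotease able to cut Hbegf. It had 3.72 ± 0.415 CPM at 6 h, its lowest mean, and 34.6 ± 7.78 CPM at 14 d, its highest (SD, n = 3 each), with a log2 fold change early minus late of -2.22 (SE 0.32, adjusted p = 1.14e-05). Adam17, the main sheddase of these ligands, ranged from 60.6 to 107 CPM and did not pass (adjusted p = 0.264). Early against late, 2 further genes of the list passed, picked here after their values were seen: Rhbdf2, which escorts Adam17 to the surface, at 0.50 (SE 0.12, adjusted p = 0.00517) and Adam15 at 0.33 (SE 0.11, adjusted p = 0.0372). Neither passed with campaign in the fit (adjusted p = 0.0532 and 0.528).

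Of 16 genes that restrain the receptors or the ERK pathway, 1 passed over the time course, against 9.01% of all genes tested. It was Spred1 (adjusted p = 0.00276), with 69.0 ± 4.05 CPM at 3 h (SD, n = 3) and 136 ± 22.7 CPM at 7 d (SD, n = 6). It was lower early (-0.36, SE 0.09, adjusted p = 0.00733). Errfi1, which encodes the feedback inhibitor Mig6 of Egfr, was higher early (0.48, SE 0.15, adjusted p = 0.0287), but not with campaign in the fit (adjusted p = 0.319). It was picked after its values were seen. Of 17 adaptor and kinase genes, 0 passed over the time course, with Src just outside the threshold, and early against late Grb2 (-0.33, SE 0.10, adjusted p = 0.0213) and Src (-0.42, SE 0.12, adjusted p = 0.0152) were lower early. These were also picked after their values were seen, and with campaign in the fit Src kept its call (adjusted p = 0.00317) and Grb2 lost it (adjusted p = 0.275).

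Of 11 genes that ERK signalling is known to switch on, 4 passed over the time course, against 9.01% of all genes tested. Dusp4, an ERK phosphatase, was at 1.47 ± 1.43 CPM at 3 h (SD, n = 3) and 19.3 ± 9.21 CPM at 7 d (SD, n = 6; adjusted p = 5.93e-05). Egr1 was highest at 0 h, 294 ± 18.2 CPM (SD, n = 3), and lowest at 7 d, 54.3 ± 21.8 CPM (SD, n = 6; adjusted p = 0.000361). Myc and Fosl1 had their highest means at 3 h, Myc at 132 ± 41.1 CPM against 54.7 ± 10.6 CPM at 0 h (adjusted p = 0.00298) and Fosl1 at 38.2 ± 30.1 CPM against 5.45 ± 6.45 CPM (adjusted p = 0.0305; SD, n = 3 each). Epgn and Erbb3 were also highest at 3 h, and a link between these genes was not tested. With campaign in the fit, 3 of the 4 passed, against 12.2% of all genes, and Fosl1 was at 0.0597.

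Of 4 wound-induced keratins, which skin under repair makes, 3 passed over the time course, against 9.01% of all genes tested. They were Krt6b (adjusted p = 0.00263), Krt6a (0.00317) and Krt16 (0.0124), all with their highest mean at 21 d and their lowest at 0 h or 7 d. All mice at 21 d had November to January dates, so this peak was seen in 1 campaign only. With campaign in the fit the same 3 passed over the time course, against 12.2% of all genes. Krt6b had 5112 ± 3759 CPM at 21 d against 852 ± 158 CPM at 0 h (SD, n = 3 each), and its log2 fold change early minus late was -1.09 (SE 0.25, adjusted p = 0.00267). That of Krt16 (-0.52, adjusted p = 0.137) and Krt6a (-0.10, adjusted p = 0.735) did not pass. Krt17, picked after its values were seen, was also lower early (-0.58, SE 0.18, adjusted p = 0.0240), but not with campaign in the fit (adjusted p = 0.266).

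**Figure D4:**
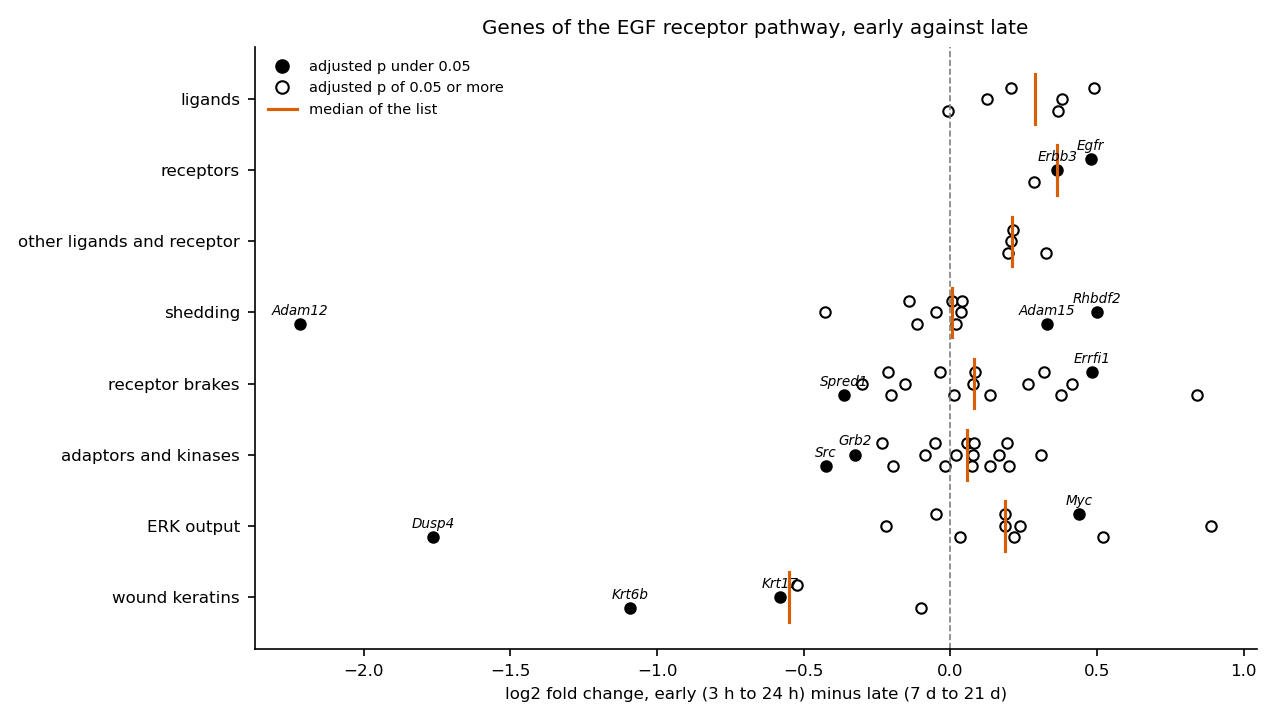
Log2 fold change, early (3 h to 24 h) minus late (7 d to 21 d), of the tested genes of 8 lists of the EGF receptor pathway, 1 point a gene. Filled, named points have an adjusted p under 0.05 and orange bars are list medians. All 3 receptors lie right of 0 and the wound keratins left of 0, and Adam12 and Dusp4 stand far to the left.

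Cell type markers moved between the same mice, and their part in the differences of Egfr and Erbb3 was not tested. The 6 basal keratinocyte markers summed to a median of 11921 CPM early (range 9509 to 14309) and 11142 CPM late (9158 to 13693), with 1 of the 6, Krt5, higher early. The 6 suprabasal markers summed to 40102 CPM early (30921 to 82108) and 31601 CPM late (17691 to 52663), with 1 of the 6, Krtdap, higher early. With campaign in the fit Krtdap lost its call (adjusted p = 0.190), Krt1 (0.00726) and Krt10 (0.0162) passed as higher early, and Krt5 kept its call (0.00204). Markers of 5 other types were higher late in their sums: osteoclasts 102 CPM early (68.9 to 155) and 1334 CPM late (291 to 3904), osteoblasts 188 CPM (117 to 342) and 1662 CPM (704 to 3726), fibroblasts 4125 CPM (2230.0 to 6991) and 17761 CPM (9317 to 39316), monocytes and macrophages 118 CPM (60.0 to 144) and 171 CPM (96.8 to 471), and neutrophils 35.3 CPM (15.3 to 115) and 114 CPM (18.9 to 186). Of their genes tested, 4 of 5, 3 of 5, 3 of 5, 4 of 6 and 2 of 5 in that order were called higher late, against 15.4% of all genes in either direction and 6.09% higher early. Among the fibroblast genes, Col1a1, Col3a1 and Lum were higher late. Dcn was higher early (log2 fold change 0.75, SE 0.21, adjusted p = 0.0135), but not with campaign in the fit (adjusted p = 0.371). Pdgfra was not called (-0.05, SE 0.13, adjusted p = 0.828). These genes were picked after their values were seen. At 14 d Col1a1 and Col3a1 made up most of the fibroblast sum, with means of 17503 and 8357 CPM. Among the neutrophil genes, the means of Cxcr2 stayed between 14.6 CPM at 12 h and 23.3 CPM at 24 h, while those of S100a9 ran from 0.720 CPM at 0 h to 94.8 CPM at 7 d.

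The remaining marker sums were low or overlapped widely. None of their tested genes was called early against late except 1 of 4 endothelial genes, higher late. Endothelial genes summed to 109 CPM early and 149 CPM late, Schwann cell and melanocyte genes to 33.2 and 43.3 CPM, lymphocyte genes to 34.7 and 31.8 CPM and mast cell genes to 9.05 and 8.08 CPM all medians of 12 mice. Skeletal muscle genes summed to at most 6.70 CPM early and 7.83 CPM late, but at 0 h they ran from 0.640 to 55.6 CPM with a median of 1.36 CPM. The lymphocyte sum was mostly Gata3, whose means ran from 24.0 CPM at 21 d to 42.2 CPM at 3 d. Cd3e, Cd3g and Cd4 failed the filter on low counts, and the T cell gene Cd3e was at or under 3 counts in 29 of 30 mice.

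Read assignment limits some of these genes. Expected counts that are not whole come from reads assigned by estimation, and they were whole in 2 of 30 mice for Btc and 1 of 30 for Egfr, against 17 to 30 for the other genes. Ereg overlaps the antisense gene Gm19610 by 141 bases, Tgfa overlaps Gm43917 by 118 bases, and Erbb2 overlaps Mien1, on the other strand, by 9 bases. Gm19610 and Gm43917 are not among the genes with deposited counts, while Mien1 is.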

How the data were processed

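Poly-A RNA of whole digit tissue was sequenced as single-end reads after LM-Seq library preparation. The authors processed the runs with CASAVA 1.8.2, aligned reads with Bowtie, allowing 2 mismatches and at most 200 hits, against Ensembl transcripts of mm10, and estimated expression with RSEM 1.2.3. They deposited expected counts per gene and mouse, TPM per gene and mouse, which the authors computed from those estimates, and a table of average normalized TPM per time point, a signal that the authors made by median-by-ratio scaling and averaging over mice. Of all expected counts, 78.1% were whole with no tolerance, zeros included, and the rest hold reads assigned by estimation.

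Expected counts were rounded and tested with edgeR 4.0.16 in R 4.3.3 (TMM, filterByExpr by time point, quasi-likelihood, Benjamini-Hochberg over all 13793 genes, threshold 0.05), with the 9 time points as a factor over all 30 mice. CPM used the same normalization, log2 levels a pseudocount of 1, and levels between genes the deposited TPM. Alternatives were DESeq2 1.42.0, limma 3.58.1 on log2 TPM with pseudocounts of 1 and 0.1, other filters, size factors and thresholds, the campaign as a covariate, fits without left-foot mice and fits that left out each mouse. The edgeR fit without campaign was tested on simulated counts, for the test over the 9 time points and for early against late. The other fits and steps were not tested in this way. Figures were drawn with matplotlib 3.10.9 in Python 3.11.15.

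The 9 genes and all gene lists were chosen with earlier results of these data known. Apart from the 9 genes, up to 4 genes a list were named, in order of p, where the test over time points passed, and for likeness the 3 genes with the highest Pearson correlation, of which 1 for Areg is not reported here. Fold changes were to be printed for pairs that passed and for all 9 genes early against late, and other pairs are marked as picked after their values were seen. Totals of 3167625 to 16277816 counts per mouse limit the precision of Areg most. The p-values set differences between times against the spread between mice. Without campaign in the fit, that spread also holds differences between the campaigns. Protein sequences were not used here.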

Additional observations from a re-analysis of the deposited data

How the results depend on the processing

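Over the 9 time points, 2 of the 9 genes were called. The count was 1 (Erbb3) with DESeq2 size factors, with a filter of at least 1 CPM in 3 mice or without left-foot mice, 0 at a threshold of 0.01 or in limma on log2(TPM + 1) or log2(TPM + 0.1), and 3 (with Ereg) in the DESeq2 test or without a filter on low counts. Over all genes, 1243 were called in the main fit, 1252 with DESeq2 size factors, 1248 with the 1 CPM filter and 1255 without left-foot mice. The number was 604 at the 0.01 threshold, 1008 and 927 in the limma fits in that order, 2496 in the DESeq2 test and 1198 unfiltered. Leaving out 1 mouse gave 0 to 2. Early against late, 2 genes were called, 0 with the campaign covariate or in either limma fit, 3 (with Erbb2, adjusted p = 0.0474) in the DESeq2 test, and 2 to 3 without 1 mouse: Erbb2 joined without replicate 1 at 14 d or replicate 3 at 21 d. Of all genes, the main fit called 2125, the campaign covariate 1701, the limma fits 1701 and 1565, and the DESeq2 test 2551. At 7 d against 0 h the count of 0 became 1 (Ereg) without replicate 6 at 7 d, and the range was 0 to 1. The main fit called 2.34% of all genes there.

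Early minus late, the sign of Hbegf (-0.01) turned to 0.0047 with the campaign covariate and 0.091 without left-foot mice, and ran from -0.11 to 0.065 without 1 mouse. That of Btc turned to -0.020 with the campaign covariate and -0.042 without left-foot mice. The causes were not tested.

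No paired analysis was possible because the labels give no replicate numbers and no 2 time points share more than 1 animal code in their titles. With 3 mice at most times, 3 counts or fewer of Areg in 3 mice and campaigns spread unevenly over time, a comparison with 0 h that missed the threshold does not show that a level stayed the same.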
